A study of Mus musculus with 7 samples.

Results

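Gene-desert peaks are sites of open chromatin that lie far from any gene that codes for a protein. They were taken from a table of 50213 peaks as the intervals on a named chromosome that were under 1000 bp wide and had no protein-coding gene within 100 kb on either side, with genes from RefSeq on GRCm38.p6, the assembly that mm10 names. The rule kept 2696 peaks and used no measured value. Accessibility had been profiled by ATAC-seq, which inserts adapters into open DNA with a transposase, in Treg cells sorted from mouse spleen as CD45.2+, CD45.1-, CD4+ and Foxp3-YFP+. Their source was mixed bone marrow chimeras, built at a 1:1 ratio from CD45.1+ marrow and marrow of either Foxp3Cre mice (WT, 4 libraries) or Foxp3CreOpa1fl/fl mice (Opa1 KO, 3 libraries). Both genotypes therefore carried Foxp3-driven Cre and developed beside CD45.1+ cells, and in the KO the floxed Opa1 alleles are deleted in cells that express Foxp3. Opa1 is a GTPase that fuses the inner mitochondrial membrane and shapes its cristae. Neither the age and sex of the chimeras nor the number of marrow donors was given in the sources used here.

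Open chromatin away from genes is made up largely of enhancers, stretches bound by transcription factors that can act on promoters over long distances by looping of the DNA. In T cells such distal enhancers are known to be bound by ETS and RUNX factors and, after antigen receptor signals, by AP-1. Many gene deserts flank genes of developmental regulators, and the noncoding RNAs made inside them include the hosts of microRNAs, short RNAs that pair with messenger RNAs through a seed near their 5′ end.

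The mature microRNAs of the Mir99a, Mirlet7c-1 and Mir125b-2 genes are shown because the clearest differences between the genotypes lay in the desert that holds these genes. They are given 5′ to 3′ from RefSeq (GRCm38.p6, plus strand; chr16:77646279-77646300, chr16:77598940-77598961 and chr16:77599672-77599693 in the order printed), with the seed (bases 2 to 8) in capitals; the seeds of all 3 differ.
mmu-miR-125b-5p: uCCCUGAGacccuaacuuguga
mmu-miR-99a-5p: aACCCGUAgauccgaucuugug
mmu-let-7c-5p: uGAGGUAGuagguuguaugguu

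The sequences under the desert peaks themselves were not analysed here, except where a peak overlapped the window from 250 bases before to 50 bases after an annotated start in RefSeq (GRCm38.p6). This held for 62 desert peaks, at 71 windows of 63 noncoding genes. The first window shown is that of Gm26901 (chr1:7398047-7398346, minus strand), since it lies inside the most accessible desert peak; its capitals mark the bases from the annotated start on. The second, of Gm41331 (chr15:60141576-60141875, plus strand), and the third, of LOC115487176 (chr9:61013180-61013479, plus strand), are the most accessible such windows with an ETS or RUNX match and, after it, with an AP-1 match, and capitals mark those matches.
Gm26901: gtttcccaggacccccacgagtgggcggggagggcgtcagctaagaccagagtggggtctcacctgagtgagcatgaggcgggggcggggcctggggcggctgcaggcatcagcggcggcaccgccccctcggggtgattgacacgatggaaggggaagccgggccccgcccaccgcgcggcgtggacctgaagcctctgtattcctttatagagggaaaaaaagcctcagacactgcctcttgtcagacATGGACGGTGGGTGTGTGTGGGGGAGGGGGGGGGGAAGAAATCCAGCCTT
Gm41331: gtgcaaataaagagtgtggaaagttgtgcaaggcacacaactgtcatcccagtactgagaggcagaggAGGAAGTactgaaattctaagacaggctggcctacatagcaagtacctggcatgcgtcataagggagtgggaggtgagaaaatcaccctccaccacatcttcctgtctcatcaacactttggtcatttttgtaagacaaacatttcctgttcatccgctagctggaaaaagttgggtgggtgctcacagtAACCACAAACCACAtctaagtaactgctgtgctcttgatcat
LOC115487176: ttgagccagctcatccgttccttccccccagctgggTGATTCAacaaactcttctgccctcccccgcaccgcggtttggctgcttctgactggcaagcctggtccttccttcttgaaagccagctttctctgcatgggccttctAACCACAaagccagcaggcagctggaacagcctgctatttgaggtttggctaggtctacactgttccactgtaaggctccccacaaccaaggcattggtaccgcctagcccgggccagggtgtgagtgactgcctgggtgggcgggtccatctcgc

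The capitals in the Gm41331 window mark AGGAAGT (ETS) once and the reverse complement of TGTGGTT (RUNX) at 2 adjoining places, and those in the LOC115487176 window mark TGANTCA (AP-1, which reads the same on both strands) and RUNX once each. Over both strands, AGGAAGT was found in 18.3% of the 71 windows and in 9.35% of all 32851 windows of the same length. TGTGGTT was found in 14.1% and 5.27%, and TGANTCA in 25.4% and 7.81%. CACGTG (the E-box, a palindrome) was found in 8.45% and 7.15%, and TGTTTAC (forkhead) in 7.04% and 3.65%. The median GC content was 48.7% in the 71 windows and 52.7% in all. None of the 5 letter strings contains another, and a match describes letters and does not show binding. Some of the 71 windows overlap, as the windows of Gm41331 do, so a match can be counted more than once. Matches were counted over whole windows, and parts of some windows lie outside the desert peak. The 32851 windows were not limited to open chromatin and include those of protein-coding genes, and the differences in shares were not tested. The Gm41331 peak stood at 79.0, 81.2, 87.9 and 86.4 CPM in WT replicates 1 to 4 and at 73.9, 107 and 106 CPM in KO replicates 1 to 3, where CPM is the count after scaling of all libraries to a common size. The genotypes overlapped there, as they did at the LOC115487176 peak, with 26.6 to 33.2 CPM in WT and 18.3 to 34.1 in KO.

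Total counts in peaks ran from 1534394 to 3384325 per library, with KO replicate 1 the deepest, and between 78.0% and 86.3% of the counts of a library were even, as they are when both mates of a read pair are counted. The counts of WT replicates 2 and 3 were the closest of all pairs within a genotype. Over 36418 peaks (mean of 10 or more counts) their chi-square per degree of freedom was 1.01, within sampling noise, against 1.02 to 1.09 for the other pairs. Over the 11332 peaks that averaged 50 counts or more it was 1.024, slightly beyond sampling noise (chi-square p = 0.0346), against 1.033 to 1.155. They were averaged and counted as 1 sample in each mean ± SD (n = 3 per genotype), and entered the tests as separate libraries. The series counts 4 and 3 chimeras, and the p-values measure the spread between these 7 libraries. All 6 Treg and T cell genes checked had peaks, with 871 to 928 CPM in sum per library. Such sums depend on the number of peaks per gene. Ikzf2 had 20 peaks, whereas Cd4 and Cd3e had 1 each, at 19.4 to 38.8 and 9.71 to 17.9 CPM. Among the genes that mark other cells, Ms4a1, Lyz2, Csf1r, Ncr1 and Hba-a1 had no peak; the B cell genes Pax5 and Ebf1 summed to 24.8 to 34.4 CPM, the myeloid genes to 21.5 to 36.1, the CD8 genes to 20.5 to 36.1 and the erythroid genes Gata1 and Klf1 to 12.04 to 25.3, and the NK cell gene Klrb1c ranged from 1.204 to 4.84 CPM. The Gata1 peak stood at 6.78, 5.42, 2.41 and 8.43 CPM in WT and at 13.2, 10.1 and 12.9 in KO, every KO library above every WT library. The Klf1 peak did not share this pattern, with 9.63 to 18.95 CPM in WT and 2.16 to 15.2 in KO. The erythroid sums overlapped as well, at 12.04 to 24.4 CPM in WT and 15.1 to 25.3 in KO. The part of the Gata1 peak in the results was not tested. The Opa1 gene lies on chromosome 16 (29579281 to 29663127) and had 1 peak, at its end of lower coordinate, with 33.8 to 37.9 CPM in WT libraries and 29.1 to 42.6 in KO libraries (edgeR log2 fold change -0.06, adjusted p = 0.955). Whether that peak lies in the floxed part is not given, so it does not check the deletion.

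The desert peaks lay a median of 182564 bp from the nearest protein-coding gene and at most 1758203 bp from it. Between 100 and 200 kb there were 1535, between 200 and 500 kb 935, and beyond 500 kb 226. Their median width was 304 bp, against 301 bp in peaks 1 to 100 kb outside genes, 299 bp inside genes and 412 bp within 1 kb of a gene end, so they were narrower only than the peaks at gene ends. They were weaker than each of these classes. Their median accessibility was 6.79 CPM, against 7.50 in peaks 1 to 100 kb outside genes, 7.86 inside genes and 23.7 within 1 kb of a gene end. Only 486 of them (18.0%) exceeded 20 CPM and 21 exceeded 100 CPM. The median was 7.07 CPM at 100 to 200 kb, 6.53 at 200 to 500 kb and 5.85 beyond 500 kb, so that the more remote bands were the weaker ones. At the boundary of the rule, the 240 peaks just inside it (100 to 110 kb) had a median of 6.51 CPM and the 284 peaks just outside it (90 to 100 kb) 7.50. A low-count filter left 1809 of the 2696 desert peaks (67.1%) for testing, against 75.8% of all peaks.

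Few gene-desert peaks passed the test between genotypes, and 5 of the 6 that did lay in 1 desert of chromosome 16. Of the 1809 tested desert peaks, 5 were higher and 1 lower in KO at an adjusted p under 0.05 (edgeR quasi-likelihood test, Benjamini-Hochberg adjustment over the whole table). Over all 38041 tested peaks, 0.0867% were called, 0.0473% higher and 0.0394% lower. The median log2 fold change of the desert peaks was -0.01 and that of all tested peaks -0.001, and 883 of the 1809 had a value above 0. At an unadjusted p under 0.05 there were 104 higher and 104 lower, 11.5% of those tested beside 9.47% of all peaks. The genotypes did not overlap at 192 desert peaks, 93 higher and 99 lower, which is 10.6% of those tested; over all peaks the share was 9.36%, 4.85% higher and 4.51% lower. In 1388 of the 1809 (76.7%) the estimated change was under 0.5 on the log2 scale, and the median standard error of a change was 0.35, so changes of that order could not be resolved at most single peaks. With 50000 cells pooled per library, fewer open cells and less open chromatin per cell cannot be told apart.

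**Figure D1:**
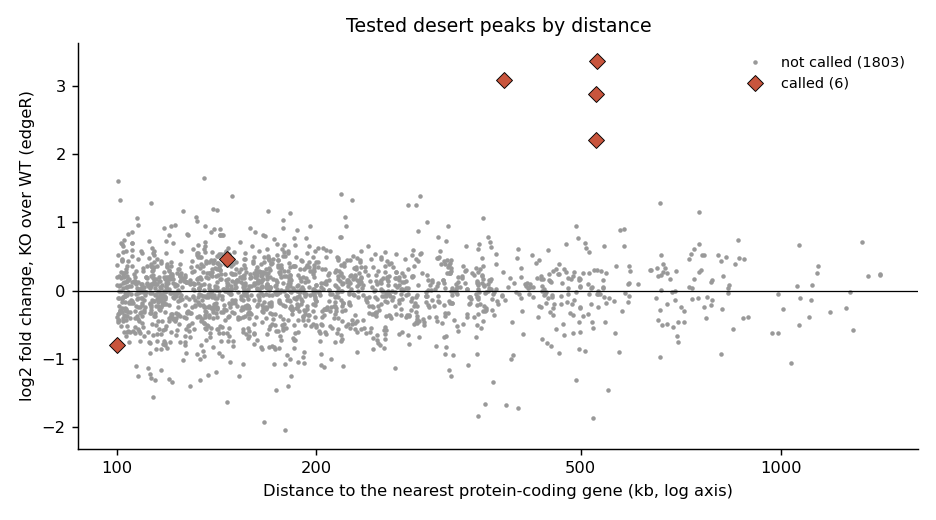
Log2 fold change of each of the 1809 tested desert peaks, KO over WT from edgeR (vertical axis), against the distance to the nearest protein-coding gene in kb (log axis). Diamonds are the 6 peaks called at an adjusted p under 0.05; 4 of them lie above a log2 fold change of 2, 383079 bp or more from a gene, and no other tested peak reaches that height.

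The strongest differences lay in 1 desert, the stretch of chromosome 16 between Usp25, which encodes a deubiquitinase, and Cxadr, which encodes the coxsackievirus and adenovirus receptor. This stretch held 12 desert peaks, of which 8 were tested and 5 called, 4 higher and 1 lower in KO. The 4 higher ones belong to the part with the noncoding gene Mir99ahg and with Mir125b-2 (77646273 to 77646343), one of the genes that yield miR-125b. Mir99ahg is known as the host transcript of the miR-99a and let-7c cluster. As annotated here it spans 77329328 to 77558428, and Mir99a, Mirlet7c-1 and Mir125b-2 all lie beyond its end. Background knowledge of miR-125b in CD4 T cells is of a microRNA that restrains effector differentiation of naive cells, and let-7 family members are known as brakes on proliferation. The table counts open DNA and says nothing of the amounts of these microRNAs.

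The first called peak (77644379 to 77644717) lay 1556 bp from Mir125b-2 and had 6.30, 2.71, 2.41 and 4.22 CPM in WT replicates 1 to 4 and 30.2, 34.1 and 27.0 CPM in KO replicates 1 to 3. Every KO library was above every WT library by a wide margin (log2 fold change 2.89, SE 0.32, edgeR adjusted p = 1.59e-08), from 29 counts in all WT libraries and 202 in all KO libraries. It was called under each of the 17 other fits tried. A second peak (77645009 to 77645315), 958 bp from the microRNA gene, stood at 2.91, 0, 1.204 and 1.054 CPM in WT and at 15.4, 16.4 and 12.9 in KO. Here too the genotypes were far apart (log2 fold change 3.37, SE 0.50, adjusted p = 5.34e-05), and the call was kept in all 15 other fits that tested the peak, with a largest adjusted p of 0.0481. The third (77643867 to 77644139), 2134 bp from Mir125b-2, had 0.969, 4.06, 3.61 and 4.22 CPM in WT and 17.3, 20.2 and 6.47 in KO. KO replicate 3 was nearer to WT than to the other KO libraries (log2 fold change 2.21, SE 0.44, adjusted p = 0.00857). That call was lost without KO replicate 1 (adjusted p = 0.177), KO replicate 2 (0.0919) or WT replicate 1 (0.123), with the replicate number as a block (0.0917) and in limma-voom (0.145).

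Further from the microRNA gene, a peak inside Mir99ahg (77499862 to 77500243) had 0.969, 2.71, 0 and 2.11 CPM in WT and 16.02, 8.85 and 11.9 in KO. All KO libraries were above all WT libraries (log2 fold change 3.09, SE 0.53, edgeR adjusted p = 0.000726), though the call was lost without KO replicate 1 (adjusted p = 0.209) and in limma-voom (0.101). Every peak of the table within 350 kb of Mir125b-2, 8 in number, was a desert peak, and all 8 had a KO mean above the WT mean; in 5 of them the genotypes did not overlap, all with KO above. The 4 of these that were too low to be tested stood at most at 6.78 CPM in WT and at 12.6 CPM in KO. The 4 tested ones had at most 13 counts in any WT library, so they passed the low-count filter through the KO libraries. Peaks kept in that way could hardly be lower in KO, so the shared direction adds no support of its own. Summed over the 5 desert peaks on Mir99ahg, accessibility was 10.7, 9.48, 4.82 and 9.48 CPM in WT and 31.4, 43.0 and 21.6 in KO. The exact permutation p of that sum was 0.0286, the smallest that 4 against 3 libraries allow. It was 0.257 after adjustment over the 9 noncoding genes compared, so this sum is not called. No gene could pass that adjustment by itself, whatever its values.

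**Figure D2:**
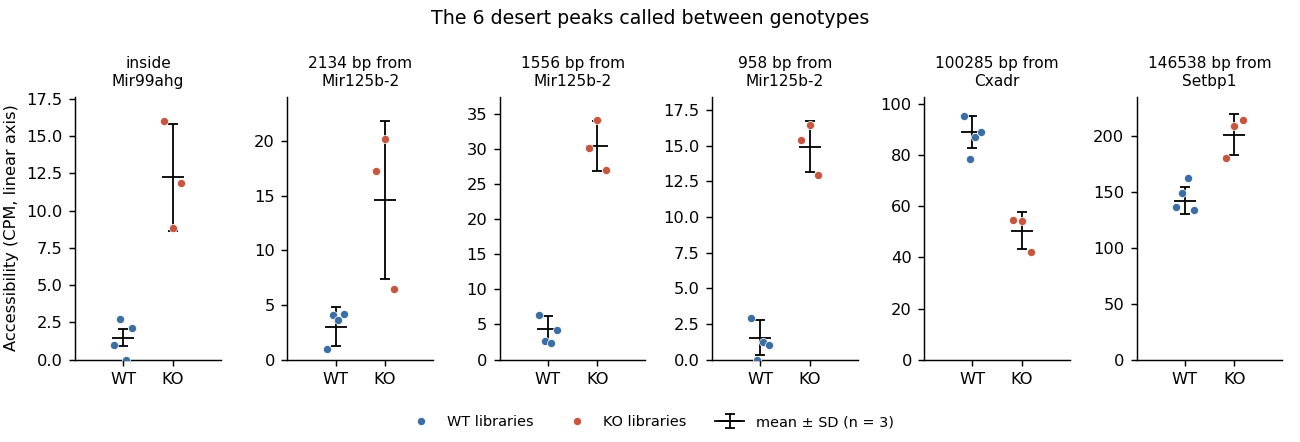
Accessibility in CPM (linear axes from 0, with a scale of its own in each panel) of the 6 desert peaks called between genotypes, with 1 point per library and bars for mean ± SD, WT replicates 2 and 3 averaged (n = 3 per genotype). In each panel the WT and KO points do not overlap; KO is lower in the Cxadr panel and higher in the other 5.

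**Figure D3:**
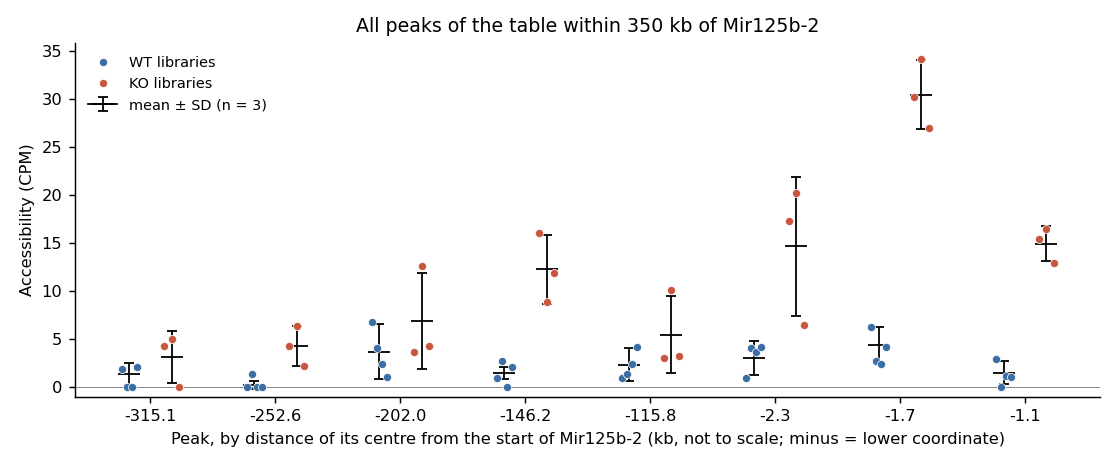
Accessibility in CPM (vertical axis) at the 8 peaks of the table within 350 kb of Mir125b-2, ordered by the distance of the peak's centre from the start of that gene, with 1 point per library and bars for mean ± SD (n = 3 per genotype). The KO mean is above the WT mean in all 8, and the 3 peaks closest to the gene reach 6.47 to 34.1 CPM in KO libraries. The tested peaks among them passed the low-count filter through the KO libraries, so the shared direction is partly set by that filter.

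At the other end of this desert a cluster of more accessible peaks lay close to the 100 kb limit from Cxadr. The called one (78200338 to 78200941), 100285 bp from Cxadr, had 95.4, 78.5, 87.3 and 89.0 CPM in WT and 54.8, 54.3 and 42.1 CPM in KO. All KO libraries were below all WT libraries (log2 fold change -0.79, SE 0.14, edgeR adjusted p = 0.000948), with an adjusted p of 0.0539 without KO replicate 3. Of its 3 neighbours, none was called and 2 had lower estimates in KO. The peak at 78199341 to 78199591 averaged 29.5 ± 5.12 CPM in WT libraries and 19.4 ± 4.82 in KO libraries, at a log2 fold change of -0.51 (adjusted p = 0.477), without overlap. At 78197545 to 78197811 the means were 28.1 ± 4.77 and 23.2 ± 5.19 CPM, with overlap (log2 fold change -0.29, adjusted p = 0.744). The strongest of the cluster, at 78198665 to 78199099, stood at 97.4 ± 4.74 CPM in WT against 104 ± 4.07 in KO libraries (a log2 fold change of 0.11 with an adjusted p of 0.83). Summed over the 4 peaks, accessibility was 260, 219, 234 and 246 CPM in WT and 198, 206 and 188 in KO, again without overlap (exact permutation p = 0.0571, two-sided, and 0.418 after adjustment over the 117 groups of closely spaced desert peaks).

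Chromosome 16, which also carries Opa1, held 187 desert peaks, of which 136 were tested and 5 called, and those calls lay 47.8 Mb or more beyond the end of Opa1. Over all 1583 tested peaks of chromosome 16, desert peaks included, 6 were called higher and 7 lower in KO. Outside it, 12 were called higher and 8 lower among 36458 tested, so calls on this chromosome were not particular to deserts. A link to the floxed gene was not tested. Of the 20 tested desert peaks between 20 and 30 Mb, the interval with Opa1, none was called and 3 had an unadjusted p under 0.05; of the 33 between 70 and 80 Mb, 5 were called and 10 had an unadjusted p under 0.05. All other chromosomes together held 2509 desert peaks with 1 call among 1673 tested, on chromosome 18. That peak (79256982 to 79257603), 146538 bp from Setbp1, which encodes a protein that binds the oncoprotein SET, is among the 10 most accessible desert peaks. It stood at 137, 150, 163 and 134 CPM in WT and at 181, 209 and 215 in KO. The genotypes did not overlap, and the change was small (log2 fold change 0.46, SE 0.10, edgeR adjusted p = 0.0127). It was not called without WT replicate 1 (adjusted p = 0.123), WT replicate 4 (0.0987), KO replicate 2 (0.0554) or KO replicate 3 (0.184), with a replicate block (0.121) or with loess offsets (0.0633).

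Of the remaining desert peaks whose genotypes did not overlap, those with the smallest p did not pass the adjusted threshold. In the desert beside Rasa1, which encodes a GTPase-activating protein for Ras, the peak at chromosome 13, 85459362 to 85459759, had 47.5, 37.9, 43.4 and 46.4 CPM in WT and 23.4, 24.0 and 27.0 in KO (log2 fold change -0.83, SE 0.19, edgeR adjusted p = 0.0534). The peak at chromosome 6, 37714144 to 37714583, 72 bp from the noncoding gene Gm38791, had 56.2, 73.1, 63.8 and 48.5 CPM in WT and 93.7, 85.9 and 86.3 in KO (log2 fold change 0.57, SE 0.14, adjusted p = 0.0575). The calls on both depended on the fit. In the order given, adjusted p was 0.0229 and 0.0411 in DESeq2 and 0.0393 and 0.0284 in limma-voom, but 0.208 and 0.355 with the replicate number as a block, and 0.0355 and 0.134 with loess offsets. Without 1 library, it ran from 0.0327 to 0.263 at the first peak and from 0.0196 to 0.289 at the second, and passed only without WT replicate 2. Behind them in the order of p, a peak on the noncoding gene 4732465J04Rik (chromosome 10, 95779610 to 95780089) had a log2 fold change of 0.43 (adjusted p = 0.0896), and a peak in the desert between Id2 and Rnf144a (chromosome 12, 25784375 to 25784780) one of -1.87 (adjusted p = 0.100). Lower estimates with adjusted p between 0.197 and 0.256 came from peaks beside Fbxw7, Satb1, Klf12 and Tgfbr2 and inside Lncpint, at log2 fold changes of -0.55, -0.85, -0.84, -1.63 and -0.999. A peak between Map3k1 and Ankrd55 had a log2 fold change of 1.33 (adjusted p = 0.174).

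The Rasa1 desert, singled out after its values were seen, held 22 desert peaks, 21 of them tested. At an edgeR unadjusted p under 0.05, 7 of the 21 were higher and 1 was lower in KO, and none was called. Over all tested peaks, 9.47% had such a p in either direction. Of the 7 higher peaks, 4 lay within 1 group that spans 21245 bp, and such neighbours need not vary independently. The lower peak stood 365 bp from a neighbour (85458660 to 85458997) that went from 20.3 to 28.5 CPM on average (log2 fold change 0.50, edgeR adjusted p = 0.482), so adjoining sites had estimates of opposite sign.

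Over all tested peaks, of any level of accessibility, the genotypes did not overlap at 9.36%. Of the 10 most accessible desert peaks, the one beside Setbp1 was called, and the genotypes did not overlap at 4, the Setbp1 and 4732465J04Rik peaks above and those beside Negr1 and Cblb. The strongest, on chromosome 1 (7397533 to 7398461), spans the start of Gm26901 and stood at 356, 343, 291 and 311 CPM in WT and 357, 361 and 343 in KO (log2 fold change 0.12, SE 0.08, edgeR adjusted p = 0.656). Next came a peak 245622 bp from Btg1, a gene that restrains T cell proliferation, with 181 to 219 CPM in WT libraries and 216 to 226 in KO libraries (a log2 fold change of 0.15 with an adjusted p of 0.631). A peak on Junos, the antisense neighbour of the AP-1 gene Jun, ranged over 126 to 154 CPM in WT and 125 to 164 in KO, at a log2 fold change of 0.02 (adjusted p = 0.973). The peak 151134 bp from Negr1 (chromosome 3, 156410073 to 156410656) stood at 115, 133, 108 and 101 CPM in WT and 137, 147 and 141 in KO, each KO library above each WT library but without a call (log2 fold change 0.31, SE 0.10, edgeR adjusted p = 0.288). A peak 339898 bp from Cblb, which encodes a ubiquitin ligase that limits T cell activation, had 131 to 142 CPM in WT and 107 to 130 in KO, without overlap but also without a call (log2 fold change -0.19, adjusted p = 0.565). The desert peak farthest from any protein-coding gene among those tested lay 1412272 bp from Cntnap5b, at 1.35 to 10.2 CPM in WT and 5.85 to 7.58 in KO.

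The desert peaks fell into 462 stretches between neighbouring protein-coding genes. In 162 of these there was a single desert peak, whereas the 79 stretches with 10 or more held 1613 desert peaks in all. The 20 fullest stretches held 676 desert peaks (25.1%), and 7 of these 20 (35%) were bounded by a gene from a list of 50 T cell regulators, compared with 31 of all 462 (6.71%). The fullest was the desert from Myc, the growth regulator, to Gsdmc, with 63 peaks over 1.79 Mb. The desert from Tox to Car8 held 42, that from Satb1 to Kcnh8 38, that from Celf2 to Gata3 35, that from Foxo1 to Cog6 32 and that from Id2 to Rnf144a 30. Tox, Satb1, Gata3, Foxo1 and Id2 encode regulators of T cell development and differentiation. Longer stretches have more room for peaks: the median length was 1.10 Mb in the 20 fullest and 0.539 Mb in all. The list was also chosen with earlier results of these data known, and the difference in shares was not tested.

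No desert peak nearest to a gene on that list was called in edgeR. There were 338 such peaks at 23 list genes, and 253 of them were tested. Of these, 25 had an edgeR unadjusted p under 0.05 and 131 a log2 fold change above 0, with a median of 0.02. Over all tested peaks, 0.0867% were called, 9.47% had an unadjusted p under 0.05 and 49.8% were above 0. The counts beside list genes are near these shares and are not a result about those genes. Leaving out WT replicate 2 gave 1 call, a peak on Pvt1 in the Myc desert (chromosome 15, 62164662 to 62165127; adjusted p = 0.0396, and 0.246 with all libraries). Summed over the 63 peaks of the Myc desert, accessibility was 863 ± 18.7 CPM in WT and 855 ± 69.4 in KO. The strongest peak near Myc, on Pvt1 (62169315 to 62170061), stood at 81.7 to 112 CPM in WT and 81.0 to 109 in KO. Beside Satb1 the strongest peak had 95.9 to 115 CPM in WT and 105 to 118 in KO, and beside Tox 67.4 to 83.3 and 76.7 to 94.2. At Gata3 it had 42.6 to 62.2 and 42.1 to 67.2 CPM, and at Foxo1 47.0 to 75.1 and 43.7 to 73.9. Among the strongest peaks of the 23 genes, the genotypes did not overlap at Ets1 (43.4 to 59.0 CPM in WT, 61.5 to 72.7 in KO) and Nrip1 (44.6 to 62.3 in WT, 64.1 to 82.0 in KO). These had log2 fold changes of 0.31 and 0.49 and edgeR adjusted p of 0.503 and 0.21, and the Nrip1 peak is on chromosome 16, in the desert next to that of Mir99ahg. Over all tested peaks 9.36% had no overlap, so a few among 23 peaks are not a result about these genes. The strongest peak near Ikzf2, which encodes the Treg factor Helios, had 13.5 to 25.3 CPM in WT and 15.2 to 27.0 in KO.

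Stretches were compared by their summed accessibility as a description, with no test. Among the 14 fullest, the genotypes overlapped in 12. In the desert from Trib2, which encodes a pseudokinase, to Lpin1, the 27 peaks summed to 580, 596, 604 and 607 CPM in WT and to 654, 645 and 677 CPM in KO, with 15 of 19 tested peaks above 0 and none called. The Klf14 to Mkln1 desert, which contains Lncpint, had all KO sums below all WT sums, with 9 of 24 tested peaks above 0 and none called. Over all tested peaks, 49.8% were above 0 and 0.0867% were called. The share of all 462 stretches without overlap was not taken, so neither of these stretches is a result.

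**Figure D4:**
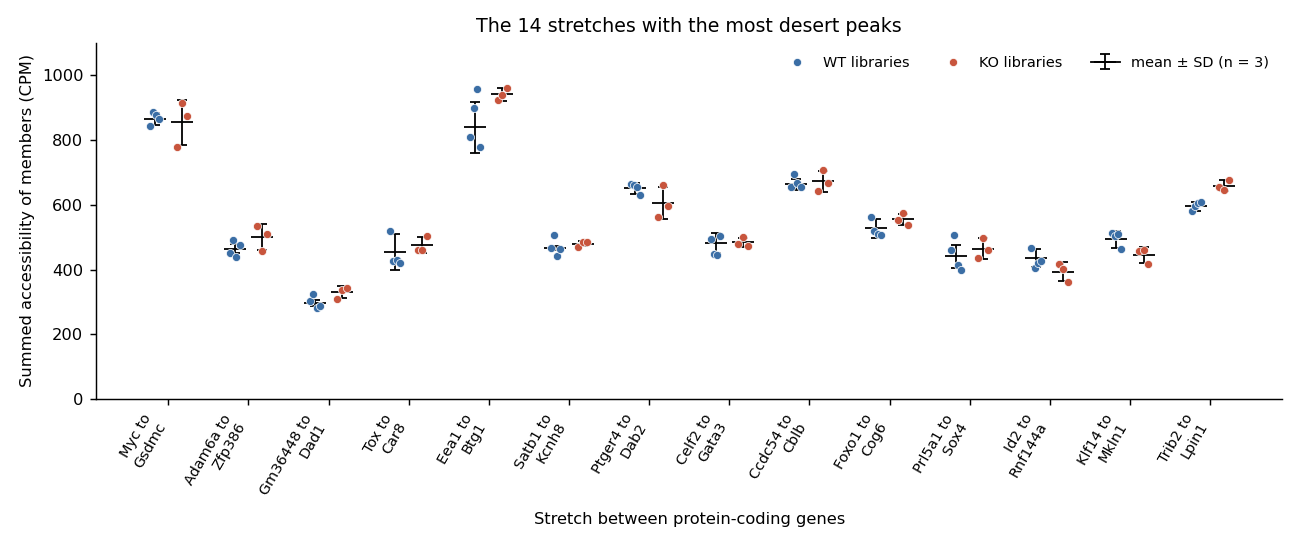
Accessibility in CPM summed over all desert peaks of a stretch (vertical axis from 0) for the 14 stretches with the most desert peaks (horizontal axis), with 1 point per library and bars for mean ± SD (n = 3 per genotype). WT and KO points overlap in 12 of the 14; KO is above WT in the Trib2 to Lpin1 stretch (659 against 596 CPM) and below it in the Klf14 to Mkln1 stretch.

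Noncoding genes overlapped 856 of the 2696 desert peaks (31.8%), 422 genes in all, and 727 of these peaks lay on a long noncoding RNA gene. These peaks had a median of 8.25 CPM, above the 6.29 CPM of the 1840 desert peaks on no annotated gene. Of the 612 tested on noncoding genes 1 was called, the Mir99ahg peak, and of the 1197 on none 5 were called. The log2 ratio of counts in the former to counts in the latter was -0.91 ± 0.01 in WT and -0.89 ± 0.01 in KO (exact permutation p = 0.229, two-sided). Apart from the antigen receptor loci, the genes that most desert peaks overlapped were 2610307P16Rik with 27 peaks, Lncpint and Morrbid with 18 each, and Gm13481 and Pvt1 with 17 each. Morrbid is known to hold down the neighbouring proapoptotic gene Bcl2l11. Its peaks summed to 228 ± 15.3 CPM in WT and 240 ± 30.6 in KO, and those of Lncpint to 408 ± 27.9 and 377 ± 13.98. None of the 9 noncoding genes compared passed the adjustment (smallest adjusted exact permutation p 0.257). With so few libraries no gene could pass it by itself, so this does not show that the genes were alike between genotypes. Within 10 kb of an annotated microRNA gene there were 14 desert peaks at 8 such genes, and the called ones among them were the 3 beside Mir125b-2.

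The immunoglobulin and T cell receptor loci are deserts by this rule, since their gene segments are not typed as protein-coding in the gene table. They held 107 desert peaks, 50 on Igh and 45 on Tcra, and 60 lay on V segments. None of the 65 tested was called, and 43 of them had a log2 fold change above 0, with a median of 0.16. Over all tested peaks, 0.0867% were called and 49.8% were above 0, so the lack of a call is near that share. The desert peaks of these loci were weak, at a median of 5.75 CPM, and the median standard error of a change was 0.38. The difference in the share above 0 was not tested. Summed accessibility on Igh was 474, 502, 462 and 492 CPM in WT and 545, 463 and 525 in KO. On Tcra it was 303, 326, 282 and 288 CPM in WT and 310, 338 and 345 in KO. The genotypes overlapped at both loci, and the exact permutation p adjusted over 9 genes was 0.429 for Igh and 0.343 for Tcra. V segments are near-copies of each other, so reads could have been placed on the wrong copy.

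Desert peaks also occurred in tight groups. With a gap under 12.5 kb between neighbours and at least 4 peaks, there were 117 groups holding 654 desert peaks (24.3%). The largest, of 17 peaks over 93681 bp, lay largely on Lncpint and summed to 314 ± 16.4 CPM in WT and 296 ± 10.4 in KO. The second, of 14 peaks between Bcl6 and Lpp on chromosome 16 (24151127 to 24223488), summed to 186, 194, 196 and 190 CPM in WT and 241, 228 and 228 in KO. All KO libraries were above all WT libraries in this group. It lies in the desert that flanks Bcl6, a repressor needed by follicular T cells, and the group ends 5355793 bp before Opa1. Of its 12 tested peaks 9 had a log2 fold change above 0 and none was called. The exact permutation p of the sum was 0.0286, shared with 6 other groups as the smallest possible. After adjustment over the 117 groups it was 0.418, the smallest adjusted value of any group, so no group passed. From a smallest possible p of 0.0286, no group could pass that adjustment by itself. The lack of a pass therefore does not show that the groups were alike between genotypes.

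The share of all accessibility that lay in gene deserts overlapped between the genotypes. Desert peaks held 3.57, 3.48, 3.53 and 3.47% of the counts in peaks in WT replicates 1 to 4 and 3.45, 3.55 and 3.45% in KO replicates 1 to 3 (exact permutation p = 0.514, two-sided). By distance, the share was 2.09% ± 0.03 in WT and 2.06% ± 0.04 in KO at 100 to 200 kb, 1.23% ± 0.02 and 1.22% ± 0.02 at 200 to 500 kb, and 0.202% ± 0.003 and 0.202% ± 0.007 beyond 500 kb (adjusted exact permutation p of 0.643, 0.643 and 0.8). Peaks 1 to 100 kb outside genes went from 18.3% ± 0.168 to 17.7% ± 0.148 of counts, peaks inside genes from 30.5% ± 0.10 to 30.0% ± 0.15, and peaks at gene ends from 44.1% ± 0.327 to 45.0% ± 0.289 (adjusted exact permutation p = 0.0762 for each of the 3). The log2 ratio of desert counts to counts 1 to 100 kb outside genes was -2.369, -2.374, -2.367 and -2.39 in WT and -2.358, -2.326 and -2.344 in KO. All KO values were above all WT values, by 0.03 on average (exact permutation p = 0.0286, two-sided, the smallest the design allows). That difference was as small as 0.02 without KO replicate 2. Among the 20 chromosomes, none passed the adjustment for its share of desert counts (smallest adjusted exact permutation p 0.381). With so few libraries no chromosome could pass it by itself, so this does not show equal shares. Chromosome 16 held 7.96% ± 0.140 in WT and 8.28% ± 0.148 in KO.

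**Figure D5:**
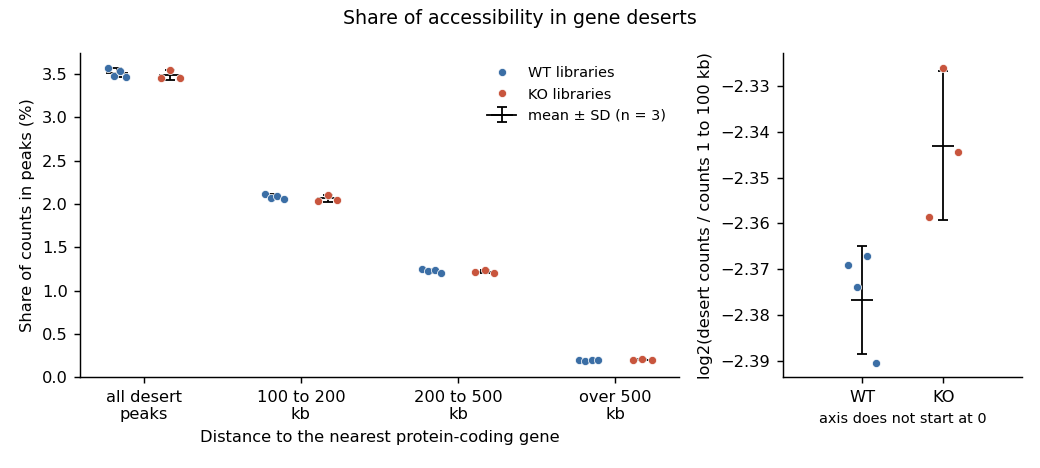
Left, share of all counts in peaks that fell in desert peaks and in each band of distance (percent, axis from 0). Right, log2 ratio of counts in desert peaks to counts in peaks 1 to 100 kb outside genes (axis not from 0), with 1 point per library and bars for mean ± SD (n = 3 per genotype); the shares overlap, and the KO ratios of -2.358 to -2.326 lie above the WT ratios of -2.39 to -2.367.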

How the data were processed

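ATAC-seq counts of 7 libraries (4 WT, 3 Opa1 KO) were analysed. The authors deposited whole-number counts per peak, not normalized, in 1 table of 50213 intervals. Per the submitters' processing notes, reads were handled with Trimmomatic 0.36, BWA 0.7.16, SAMtools 1.9 and Picard 2.9.4 on mm10, and peaks with bedtools 2.25.0 and MACS2 2.1.1. Settings, the merging of peaks and any shift of reads for the transposase (which would move peak edges by a few bases) were not given in the sources used here. Nor is the base of the starts (0 or 1), and positions are as deposited.

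Robust quasi-likelihood tests were run in edgeR 4.0.16 (R 4.3.3) over the 38041 peaks left by filterByExpr (minimum count 10, total 15), with TMM scaling, genotype as the only term and Benjamini-Hochberg adjustment at 0.05. CPM is a count divided by the library's count in tested peaks and its TMM factor. Sums and shares were compared by two-sided exact permutation over 35 splits. PCR reads without molecular identifiers do not stand for independent molecules. DESeq2 1.42.0 and limma 3.58.1 (voom) served as alternatives. The procedure was tested on simulated counts. Plots used matplotlib 3.10.9.

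Named peaks are those called, the 8 higher and 8 lower of smallest p without overlap, the 10 most accessible, the 5 farthest tested, the strongest beside each listed T cell regulator, the noncoding genes with the most peaks and the 5 largest groups; most are given as ranges. The members and lists were chosen with earlier results of these data known. Libraries with the same replicate number did not deviate together (correlations -0.012 to 0.011), so they were not paired. Planned counts of motifs and GC content in the peaks were not run, since no genome was used here; the motif counts in promoter windows were added after the data had been seen.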

Additional observations from a re-analysis of the deposited data

Results flagged for a closer look

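In 4 of 102 results examined, 1 WT library stood far from the other 3, with a gap to its neighbour that took most of the WT range (above Dixon's critical value for 4 samples); chance alone marks about 1 in 20, and the 3 KO libraries cannot be examined this way. The share of counts beyond 500 kb was 0.1936% in WT replicate 2 and 0.2028% to 0.2037% in the others. The strongest peak of the Rasa1 desert (chromosome 13, 85430039 to 85430462) had 196.3 CPM in WT replicate 2 and 163.8 to 166.5 in the others. The strongest peak beside Ets1 (chromosome 9, 32928351 to 32929024) had 43.36 CPM in WT replicate 3 and 56.86 to 59.02 in the others. The strongest peak on Gm31813 (chromosome 3, 21935888 to 21936423) had 72.67 CPM in WT replicate 1 and 61.65 to 63.23 in the others.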

How the results depend on the processing

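The number of called desert peaks, 6, was 4 to 10 when 1 library was left out, highest without WT replicate 2, and 4 with a replicate block. The block has no basis in the labels, since equal numbers are not stated to share an animal. The count was 3 with no protein-coding gene within 500 kb, 0 with no gene of any type within 100 kb (where 150 peaks were tested) and 1 outside chromosome 16. Under the remaining scalings, filters and tools, and at 50 or 200 kb, it was within 1.5 times of 6. Of the 6 called peaks, 3 were called by DESeq2 and 3 at a mean count of at least 20, because the others had no adjusted p there, and 4 to 6 without 1 library. The difference in the share of counts (KO minus WT, percentage points) beyond 500 kb, 0.00153, was of opposite sign without chromosome 16 (-0.003337), and ran from -0.002706 to 0.00424 when 1 library was left out; limiting the desert share to those peaks gives the same 0.00153, against -0.029 for all. The log2 ratio to peaks 1 to 100 kb outside genes differed by 0.0338 with WT replicates 2 and 3 averaged and by 0.0237 to 0.03998 without 1 library, where p cannot reach 0.05. Among peaks beside T cell regulators, 1 was called without WT replicate 2 and 0 otherwise. Total-count scaling lowered the median of all peaks by under 0.1. Of 53 named uncalled peaks with a test, 19 changed sign in some setting, none of them above 0.25 in size at first, and 2 were called in some settings. The planned fit on the desert peaks alone was not run. A peak of median level has few counts, which limits single-peak changes.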
